A study of Bos taurus with 4 samples.

Results

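Aminoacyl-tRNA synthetases are the enzymes that attach each amino acid to its transfer RNA (tRNA). Their messages were examined here in 2 poly(A) tail-length fractions of RNA from immature bovine oocytes. The members were chosen by name from the array's gene annotation, as the probes with a synthetase symbol together with AARSD1, AIMP1 and AIMP2, without use of any measured value. They came to 47 of 43794 bovine probes and 30 of 15216 named genes, of which 16 were cytosolic synthetases, 11 mitochondrial synthetases (symbols ending in 2) and 3 accessory genes. The platform's older symbols were updated, so that IARS on the array is IARS1 here. PARS2 and TARS3 fell outside the naming rule, and their probes did not pass the signal filter given further on.

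Each amino acid needs its own synthetase, and the charged tRNAs they make feed the ribosome. Mammalian cells keep separate sets for the cytosol and for the mitochondrion. Both are encoded in the nucleus, so the mitochondrial enzymes also start as polyadenylated cytosolic messages. GARS1 and KARS1 are exceptions in which 1 gene is known to give both enzymes. In the cytosol a group of synthetases is held together in the multisynthetase complex on the scaffold proteins AIMP1 and AIMP2. Oocytes store many maternal messages, and in oocytes the length of the poly(A) tail is tied to whether a message is stored or translated.

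The study used 4 pools of 200 Holstein oocytes at the germinal vesicle stage, the stage before meiosis resumes. Oocytes had been freed of cumulus cells and came from slaughterhouse ovaries kept on ice, so each pool mixes animals. Each pool gave a fraction called A150 (tails of at least 150 nucleotides per the labels, eluted from the beads at 75 °C after an elution at 42 °C) and a fraction called A- (tails of at most 50 nucleotides, not retained by the beads). The 2 fractions of a pool shared 1 two-colour array, and the dyes were swapped: A150 carried Cy5 for arrays 1 and 2, and Cy3 for arrays 3 and 4. The ratio given throughout is the log2 of the A150 signal divided by the A- signal, positive where A150 was relatively brighter. Normalization centred each array, so a ratio of 0 is that of a middling probe and carries no amount of RNA. Both fractions came from the same pool, so the ratio compares tail-length fractions and not numbers of cells. It was measured in bulk RNA, so the part of each cell type in it is not known.

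The background level of a channel was set at 2 SD over the mean of its 153 negative-control spots, and brighter spots are called above background. Over all bovine probes, between 9.96% (array 2) and 60.6% (array 4) were above that level in A150, and between 22% and 48.7% in A-. Array 2 had the highest background level in both fractions (2467 in A150 and 2771 in A-, against at most 1079 and 1610 on the other arrays). Of 15 oocyte marker genes, 14 were on the array, and each of these was above the level in at least 1 spot. Among 21 cumulus and granulosa marker genes, 6 were above it in neither fraction on any array, FSHR, AMH and LHCGR among them. The rest were above it in at least 1 spot. STAR was above it in both fractions on all 4 arrays and GREM1 on 3 arrays in each fraction. PTX3 was above it on 3 arrays in A150 and 2 in A-, and CD44 on 2 and 3. The part of cumulus RNA in the synthetase values was not tested.

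Probes entered the test if 3 or more arrays had them above background, in A150, in A- or in both. That left 29 of the 47 synthetase probes, where 44.4% of all bovine probes passed, and 20 of the 30 genes, where 51.2% of all named genes passed. Tested were 10 cytosolic synthetases, 7 mitochondrial synthetases and the 3 accessory genes, each by its brightest kept probe. Of the 20 genes, 7 reached 3 arrays in A150 and not in A-, and 3 reached them in A- and not in A150, so the filter itself favours genes that are high in 1 fraction. Only RARS1, LARS2 and AIMP1 passed the level in each fraction of every array. Of the 80 gene-by-array values, 43 had both fractions above background and 8 had neither.

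The messages of the synthetases did not lie on one side as a group. Of the 20 tested genes, 8 had a positive mean ratio and 12 a negative one, where 50.6% of all 7795 tested genes were positive. In the limma fit across all genes, 0 synthetase genes passed an adjusted p under 0.05 in either direction, and the share over all genes was 0% in the A150 direction and 0% in the A- direction. IARS1 and RARS1, toward A150, and IARS2, toward A-, had an unadjusted limma p under 0.05. That is 2 of 20 and 1 of 20, against 9.72% and 4.19% of all genes in the fit, so the shares are near the background. IARS1 and IARS2 had each passed the filter only through the fraction where they were brighter. RARS1 and WARS2 were positive on every array and IARS2 was negative on every array, against 13.7% and 8.89% of all tested genes. In the fit on single probes, 0 of the 29 member probes passed after adjustment, against 0% of all probes in the A150 direction and 0.0617% in the other. Without adjustment, 2 member probes lay on the A150 side (8.03% of all probes) and 2 on the A- side (5.45%). Those on the A- side, of IARS2 and RARS2, had passed the filter only through A-.

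**Figure D1:**
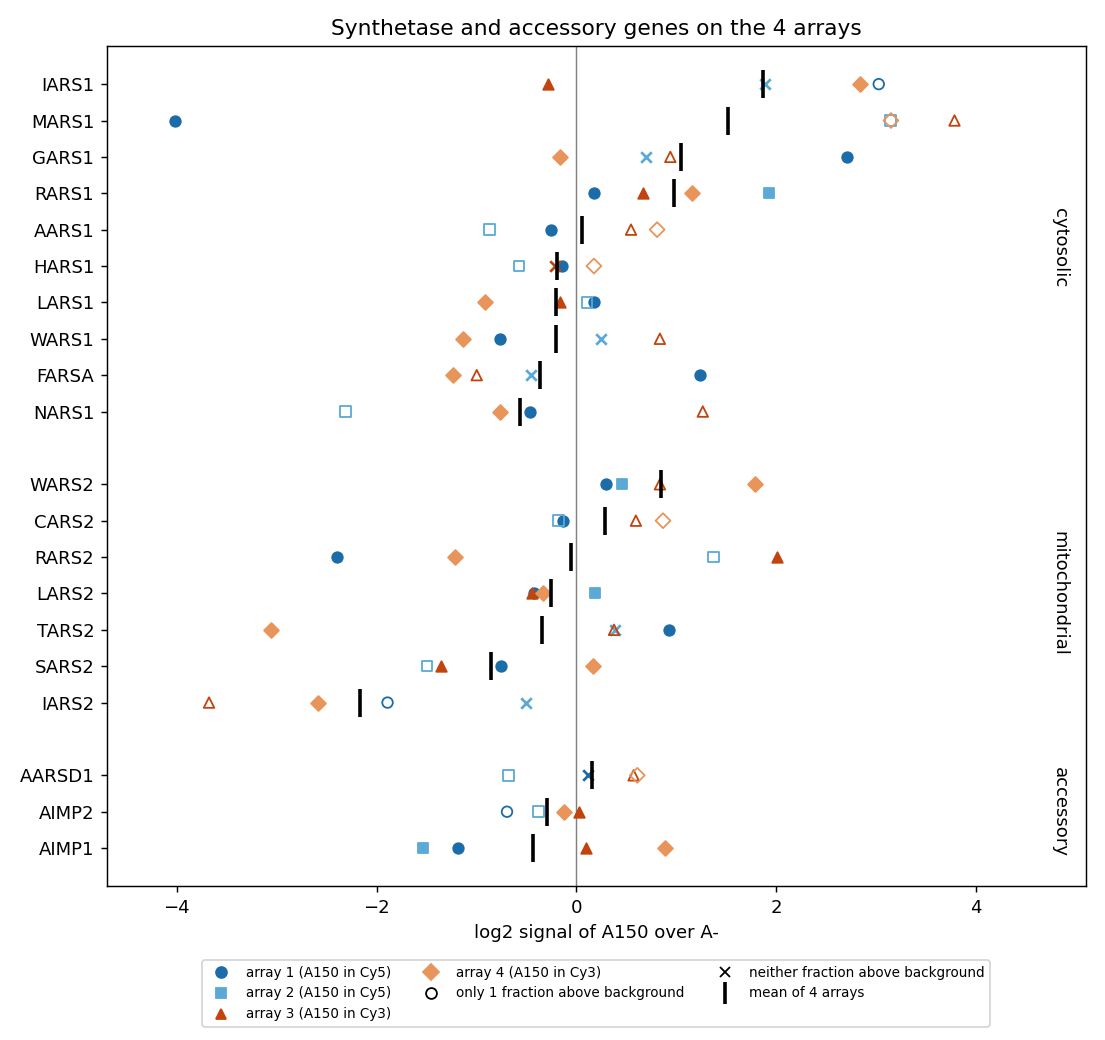
Log2 signal of A150 over A- for the 20 tested genes, in 3 classes ordered by mean, with 1 symbol per array and a black bar for the mean of 4 arrays. Filled symbols had both fractions above background, open symbols 1 fraction and crosses neither. IARS1 and IARS2 stand at opposite ends, and MARS1 and TARS2 each have 1 array far from the others.

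Of the 4 pairs with both genes tested, the isoleucine genes differed most in their measured ratios, many of which rest on spots below background. IARS1 encodes the cytosolic isoleucyl-tRNA synthetase, a member of the multisynthetase complex, and IARS2 the mitochondrial enzyme. For IARS1 the log2 ratio was 3.03, 1.89, -0.28 and 2.84 on arrays 1 to 4, high toward A150 on 3 arrays and near 0 on array 3. The mean of these measured ratios was 1.87 ± 1.52 (SD, n = 4), and no fold is given because the A- spot was below background on arrays 1 and 2. Limma gave it an adjusted p of 0.286 and an unadjusted p of 0.0292. The latter was under 0.05 in 7 of 14 alternatives. It was not without array 1, 2 or 4, with no background correction, with spot medians or with no replicate block. Nor was it with arrays left out where neither fraction was above background. For IARS2 the ratio was -1.89, -0.51, -3.68 and -2.59, on the A- side on every array. The mean of IARS2 was -2.17 ± 1.33 (SD, n = 4), again with no fold given, because its A150 spot was below background on arrays 1 to 3. Limma gave it an adjusted p of 0.186, the smallest of the 20, and an unadjusted p of 0.0110. IARS1 and IARS2 each passed the filter only through the fraction where they were brighter, which favours a small p. The p-values of both genes are therefore a description.

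The spots behind these ratios were dim in places. In A150 the IARS1 spot stood at 2.62, 0.694, 7.11 and 8.73 times the background level on arrays 1 to 4, and in A- at 0.787, 0.661, 4.10 and 1.06 times it. Both fractions were thus above background on arrays 3 and 4 only, which gave a ratio near 0 and a high one. IARS2 stood at 0.980, 0.548, 0.856 and 1.05 times the level in A150 and at 1.89, 0.893, 2.91 and 2.45 times it in A-. Its A150 signal therefore stayed below background on arrays 1 to 3, while its A- signal was above it on arrays 1, 3 and 4. On array 2 neither gene was above background in either fraction, so the ratios from that array rest on background-level spots. Without array 2 the mean ratio of IARS2 was -2.72 and that of IARS1 was 1.86. With A150 in Cy5 the mean was 2.46 for IARS1 and -1.20 for IARS2, and with A150 in Cy3 it was 1.28 and -3.13.

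**Figure D2:**
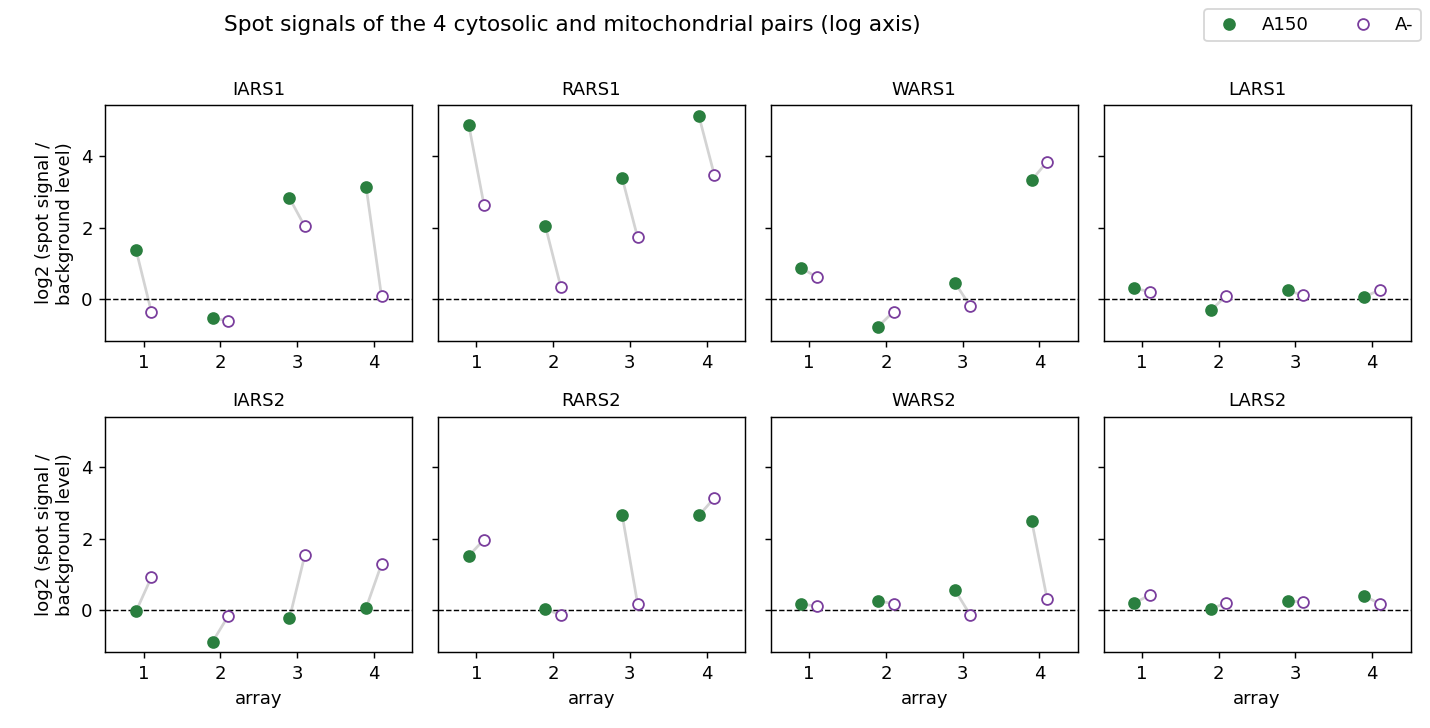
Spot signal divided by the background level of its channel, on a log2 axis, for the 4 tested pairs of a cytosolic gene (upper row) and a mitochondrial gene (lower row) on arrays 1 to 4. Filled green points are A150, open purple points A-, and the dashed line is the background level. RARS1 lies above the line in both fractions on every array, IARS2 lies above it mainly in A-, and LARS1 and LARS2 stay close to the line.

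Taken gene against gene on each array, IARS1 exceeded IARS2 by 4.92, 2.40, 3.40 and 5.43 log2 units, a mean of 4.04 ± 1.39 (SD, n = 4). The value from array 2, 2.40, compares spots that were all below background, and the mean was 4.58 without that array. IARS1 had entered the test through A150 and IARS2 through A-, each by the fraction where it was brighter, so the filter favoured this contrast and no p is given for it. The difference was 3.66 with A150 in Cy5 and 4.41 with A150 in Cy3. For the other pairs an exact two-sided permutation of the signs over the arrays was used, without adjustment over pairs. The smallest p that 4 arrays allow is 0.125, so no pair can pass 0.05.

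RARS1, the cytosolic arginyl-tRNA synthetase of the complex, was above background in both fractions on every array. It stood at 29.3, 4.10, 10.4 and 34.6 times the background level in A150 and at 6.16, 1.27, 3.33 and 11.1 times it in A-. The ratio was 0.18, 1.93, 0.66 and 1.16, positive on all 4 arrays but small on array 1. Its mean was 0.98 ± 0.75 (SD, n = 4), or 1.98-fold higher in A150, with a limma adjusted p of 0.334 and an unadjusted p of 0.0418. The latter was under 0.05 in 9 of 15 alternatives. It was not without array 2, 3 or 4, with spot medians, with a dye term in the fit, or with only the probes above background in every channel. The mean was 1.05 with A150 in Cy5 and 0.91 with A150 in Cy3.

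RARS2, its mitochondrial counterpart, had no settled direction. Its ratio was -2.39, 1.38, 2.01 and -1.21, a mean of -0.06 ± 2.09 (SD, n = 4), with arrays 1 and 4 low and arrays 2 and 3 high. A second kept probe of RARS2 had ratios of -0.80, -2.87, 0.09 and -2.08, a mean of -1.42 with an unadjusted limma p of 0.0487. That probe was above background on 1 array in A150 and on 3 in A-. It thus passed the filter only through A-, where it was brighter, so its p is a description. The probes thus differ in size and, on array 2, in sign, so the values of RARS2 depend on the probe. By the brighter RARS2 probe, RARS1 exceeded RARS2 by 2.57, 0.55, -1.34 and 2.38 on the 4 arrays. That is 1.04 ± 1.83 (SD, n = 4), a difference smaller than its spread (exact sign-flip permutation p = 0.375). The difference by the other probe was not computed.

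The tryptophan pair ran the other way. WARS2, the mitochondrial tryptophanyl-tRNA synthetase, had ratios of 0.30, 0.46, 0.84 and 1.79, positive on every array and highest on array 4. Its mean was 0.85 ± 0.67 (SD, n = 4), the highest of the 7 tested mitochondrial genes (limma adjusted p = 0.370). No fold is given, because its A- spot was below background on array 3, at 0.914 times the level. On arrays 1 to 3 its A150 spot stood at only 1.13, 1.20 and 1.48 times the level. WARS1, the cytosolic enzyme, which is known for its induction by interferon, had ratios of -0.77, 0.25, 0.84 and -1.14, on both sides of 0. Its mean was -0.20 ± 0.91 (SD, n = 4), and its 3 kept probes had means from -0.86 to -0.20. WARS1 minus WARS2 was -1.07, -0.21, -0.00044 and -2.92, so WARS1 was lower on each array, though by almost nothing on array 3. That difference averaged -1.05 ± 1.33 (SD, n = 4), smaller than its spread (exact sign-flip permutation p = 0.125).

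The leucine genes lay close together and close to 0. LARS1, a synthetase of the complex that is also known as a leucine sensor, had ratios of 0.18, 0.11, -0.17 and -0.91 and a mean of -0.20 ± 0.50 (SD, n = 4). LARS2, the mitochondrial enzyme, had ratios of -0.42, 0.19, -0.44 and -0.33 and a mean of -0.25 ± 0.30 (SD, n = 4). Their difference was 0.05 ± 0.51 (SD, n = 4), positive on 2 of 4 arrays (exact sign-flip permutation p = 0.875). The spots of both genes were between 0.811 and 1.35 times the background level in every channel, so a difference of the fractions is hard to see at this brightness.

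**Figure D3:**
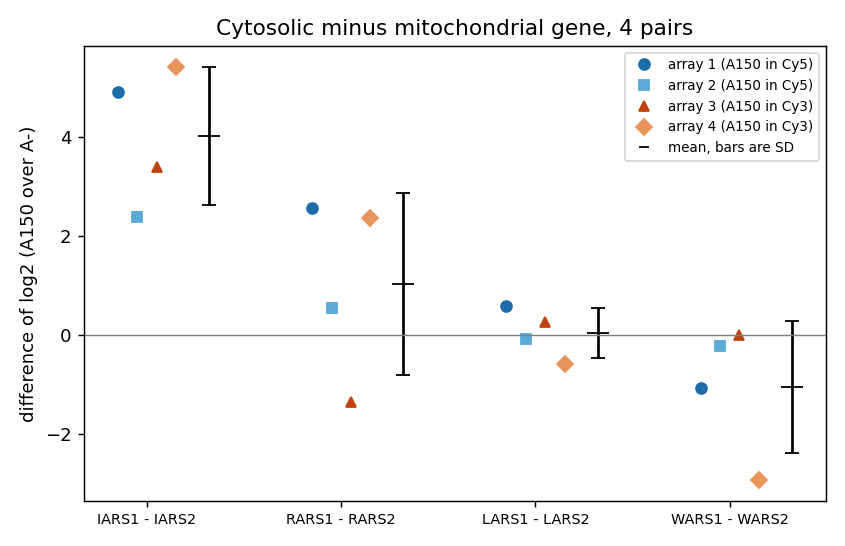
Difference of the log2 ratio (A150 over A-) between the cytosolic and the mitochondrial gene for the same amino acid, 1 symbol per array, with the mean and SD of 4 arrays. The isoleucine pair is positive on all arrays (mean 4.04), the arginine and leucine pairs cross 0, and the tryptophan pair is at or below 0.

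Among the other cytosolic synthetases, MARS1 and GARS1 had high means. Array 1 lowered the mean of MARS1 and raised that of GARS1. MARS1, the methionyl-tRNA synthetase of the complex, had ratios of -4.02, 3.14, 3.79 and 3.15, far on the A- side on array 1 and far on the A150 side on the other 3. Its mean was 1.52 ± 3.70 (SD, n = 4), and 3.36 ± 0.37 (SD, n = 3) without array 1. On arrays 2 to 4 its A- spot was below background (0.916, 0.859 and 0.743 times the level), and on array 1 it stood at 5.15 times the level against 1.35 in A150. GARS1, the glycyl-tRNA synthetase that serves both compartments, had ratios of 2.71, 0.70, 0.94 and -0.17 and a mean of 1.05 ± 1.21 (SD, n = 4, limma adjusted p = 0.467). The spot of GARS1 was 54.6 times the level in A150 on array 1 and at most 4.89 times it on the other arrays, and the mean was 0.49 without array 1. On array 2 neither fraction of GARS1 was above background, and on array 3 its A- spot was below it, at 0.861 times the level. MARS1 and GARS1 each passed the filter only through A150, where they were brighter.

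AARS1, HARS1, FARSA and NARS1, for alanine, histidine, phenylalanine (one subunit of the enzyme) and asparagine, had means between -0.57 and 0.06. NARS1 had the lowest mean of the 10 tested cytosolic genes. Its ratio was -0.46, -2.31, 1.27 and -0.76, a mean of -0.57 ± 1.47 (SD, n = 4). The 3 kept probes of NARS1 had means of -0.57, 0.17 and 0.999, so the gene has no single direction. FARSA had ratios of 1.24, -0.46, -0.996 and -1.23, AARS1 of -0.25, -0.87, 0.55 and 0.81, and HARS1 of -0.14, -0.57, -0.21 and 0.18. Each of these 3 genes crossed 0 between arrays.

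Among the other mitochondrial synthetases, SARS2 for serine had ratios of -0.75, -1.49, -1.36 and 0.17, low on 3 arrays and near 0 on array 4. The mean of SARS2 was -0.86 ± 0.76 (SD, n = 4). No fold is given, because its A150 spot was below background on array 2, at 0.787 times the level. Limma gave SARS2 an adjusted p of 0.401. TARS2 for threonine had ratios of 0.93, 0.38, 0.38 and -3.05, with array 4 far from the rest. Its mean was -0.34 ± 1.83 (SD, n = 4) and 0.56 ± 0.32 (SD, n = 3) without array 4. On array 4 the other 2 kept probes of TARS2 stood at 0.34 and -0.70, and the means of its 3 probes were -0.34, -0.16 and 0.01. CARS2 for cysteine had ratios of -0.13, -0.18, 0.60 and 0.87, a mean of 0.29 ± 0.52 (SD, n = 4). Those signs follow the dye.

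The accessory genes showed no shared shift either. AIMP1, a scaffold of the complex, passed the background level in each channel of every array. Its ratios of -1.18, -1.53, 0.10 and 0.89 put it on the A- side with A150 in Cy5 and on the A150 side with A150 in Cy3. The mean of AIMP1 was -0.43 ± 1.13 (SD, n = 4), the lowest of the accessory genes. AIMP2, the other scaffold, had ratios of -0.69, -0.38, 0.02 and -0.12, and its 2 kept probes had means of -0.29 and -0.19. AARSD1, which resembles the editing domain of the alanine enzyme, had the highest mean of the accessory genes at 0.16 ± 0.60 (SD, n = 4). Its ratios were 0.12, -0.68, 0.57 and 0.61. A sign that was the same within each dye orientation and opposite between them was found in AARS1, AIMP1, CARS2 and LARS1, that is in 4 of the 20 genes (20%) and in 16.3% of all tested genes. Across the 20 genes, the ratios of pairs of arrays correlated at r from -0.256 to 0.473, given as a description, since these genes share the labelling and scan of each array.

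The comparison of the 2 compartments asked whether cytosolic and mitochondrial synthetase messages lay differently between the fractions. The median ratio of the 10 cytosolic genes was 0.02, 0.18, 0.61 and 0.01 on arrays 1 to 4, with a mean of 0.20 ± 0.28 (SD, n = 4). For the 7 mitochondrial genes it was -0.42, 0.19, 0.38 and -0.33, with a mean of -0.05 ± 0.39 (SD, n = 4). Over all tested genes it was 0.05 ± 0.11 (SD, n = 4). Neither class median lay outside its own spread between arrays. The cytosolic median exceeded the mitochondrial one by 0.44, -0.0050, 0.23 and 0.33, a mean of 0.25 ± 0.19 (SD, n = 4), positive on 3 of 4 arrays. It was 0.22 with A150 in Cy5 and 0.28 with A150 in Cy3.

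That difference was sensitive to which genes were included. With IARS1 and IARS2 left out, a choice made after seeing the data, the cytosolic median was 0.12, the mitochondrial median 0.10 and the difference 0.01. No other tested pair was left out in this way, so the change cannot be assigned to the isoleucine genes in particular. Taking each gene's mean first and then the median of these means, the cytosolic value was -0.06 and the mitochondrial one -0.25, so the cytosolic class has opposite signs by the 2 summaries. By mean ratio, 5 of 10 cytosolic and 2 of 7 mitochondrial genes were positive. All 20 genes together had a mean array median of 0.07 ± 0.28 (SD, n = 4) and a median of gene means of -0.19, again with opposite signs.

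**Figure D4:**
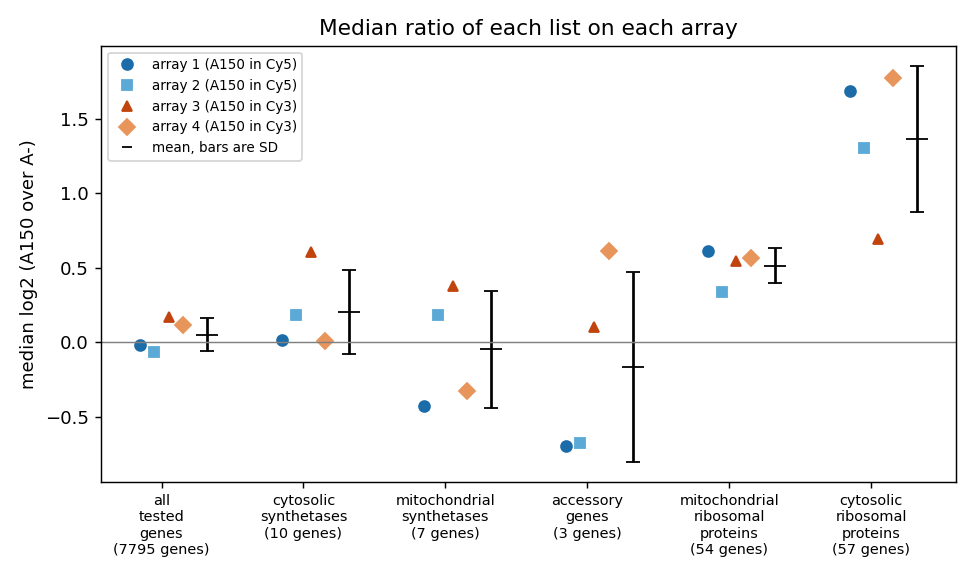
Median log2 ratio (A150 over A-) of each list on each array, with the mean and SD of 4 arrays. Both synthetase classes scatter around the value of all tested genes, while the ribosomal protein lists lie above 0 on every array.

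The synthetases were set beside the ribosomal proteins of the same compartments, which had the same filter and arrays. The 54 tested mitochondrial ribosomal protein genes had a median of 0.51 ± 0.12 (SD, n = 4), above the mitochondrial synthetases by 1.04, 0.15, 0.16 and 0.89, or 0.56 ± 0.47 (SD, n = 4). The 57 cytosolic ribosomal protein genes had a median of 1.36 ± 0.49 (SD, n = 4), above the cytosolic synthetases by 1.66, 1.12, 0.09 and 1.77, or 1.16 ± 0.77 (SD, n = 4). Both differences were positive on 4 of 4 arrays and larger than their SD. Since the shift of the ribosomal lists was known from earlier results of these data, these values are a description.

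The enzymes fall into 2 structural classes by the fold of their catalytic domain. Class I, with 10 tested genes (cysteine, isoleucine, leucine, methionine, arginine and tryptophan), had a median of 0.24 ± 0.38 (SD, n = 4). Class II, with 7 (alanine, phenylalanine, glycine, histidine, asparagine, serine and threonine), had -0.13 ± 0.39 (SD, n = 4). Class I exceeded class II by 0.37 ± 0.44 (SD, n = 4), positive on 3 of 4 arrays and smaller than its spread. The 5 cytosolic class I genes, which include IARS1, MARS1 and RARS1, had the highest median of these groups, 0.97 ± 0.73 (SD, n = 4). Of these, IARS1, MARS1 and WARS1 had passed the filter only through A150, which favours a high median. The median on array 2, 1.89, was the ratio of IARS1 itself, from spots below background in both fractions. The 6 tested members of the multisynthetase complex had a median of 0.46 ± 0.66 (SD, n = 4), against -0.12 ± 0.56 for the 6 cytosolic synthetases outside it. Their difference of 0.58 ± 1.09 (SD, n = 4) was positive on 2 of 4 arrays. The complex includes IARS1 and MARS1, and the genes outside it include AARS1, GARS1 and WARS1, which all passed the filter only through A150.

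The other 10 genes were too dim for the test: CARS1, FARS2, FARSB, KARS1, MARS2, NARS2, SARS1, TARS1, YARS1 and YARS2. By their 14 probes none was above background on more than 2 arrays, which does not show that the messages are missing. FARS2, the mitochondrial phenylalanine enzyme, was above background in A150 on 2 arrays, while its A- spots were below background on all 4 arrays. The bound computed from its means was 2.20-fold toward A150, with ratios of 2.76, 1.65, -0.21 and 0.35. KARS1, the lysine enzyme of both compartments, was above background in A- on 2 arrays and below it in A150 on every array, by the brighter of its 2 probes. The bound computed for KARS1 was 2.21-fold toward A-, with ratios of -1.56, -1.08, -0.48 and -1.46. Its second probe had a ratio of the opposite sign, with a mean of 0.76, but was above background nowhere, so that ratio carries no direction. The direction of KARS1 thus rests on the brighter probe alone, with signal in A- on 2 arrays only. In both cases the bound equals the fold of the mean ratio, because raising the dim value changed nothing. It is therefore not a minimum, and single arrays lie below it. FARSB, the second subunit of the cytosolic phenylalanine enzyme, had ratios of 1.78, 0.23, 0.69 and 2.78, positive on all 4 arrays. On arrays 2 and 3 neither fraction of FARSB was above background, so its signs there rest on background-level spots.

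Other genes of tRNA making and charging were taken from a list. Of 119 listed genes, 101 were on the array and 57 were tested, and 29 of the 57 had a positive mean. None passed after adjustment (limma, 0 of 57), and at an unadjusted p under 0.05 there were 2 of 57 on the A150 side and 2 of 57 on the A- side, against 9.72% and 4.19% of all genes, so the A150 count lay below the background share. Their median averaged 0.01 ± 0.16 (SD, n = 4). TRMT112, the partner protein of several methyltransferases, stood at 2.57, 1.59, 2.04 and 3.07, a mean of 2.32 ± 0.64 (SD, n = 4, limma adjusted p = 0.105). METTL6, a tRNA methyltransferase, stood at 1.11, 0.52, 0.88 and 2.11, a mean of 1.16 ± 0.68 (SD, n = 4, limma adjusted p = 0.244), and its second probe had a mean of 0.42. SSB, the La protein that binds new tRNA ends, stood at 0.36, 1.77, 0.20 and 0.07, a mean of 0.60 ± 0.79 (SD, n = 4), with 1.08 and 0.54 by its other probes. The lowest value of TRMT112 on any array was 1.59, while SSB was close to 0 on array 4. TRMT112 and METTL6 were above background on 3 arrays in A150 and on 2 in A-. They thus passed the filter through the fraction where they were brighter, and some of their ratios rest on spots below background.

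On the A- side, the tRNA splicing gene TSEN15 stood at -2.66, -2.18, -2.12 and -2.83 by 1 of its 3 kept probes, a mean of -2.45 ± 0.35 (SD, n = 4, limma adjusted p = 0.0889). Its other probes stood at -0.37 and -0.48. By the probe used, TSEN15 was above background on 2 arrays in A150 and on 4 in A-, so it passed the filter through A-. SEPSECS, which makes selenocysteinyl-tRNA, stood at -4.13, -0.51, -0.06 and -3.38, a mean of -2.02 ± 2.04 (SD, n = 4), by the brighter of 2 probes and at -0.22 by the other. It was far on the A- side on arrays 1 and 4 only. DTD1, an editing enzyme that removes D-amino acids from tRNAs, stood at -1.15, -0.49, -0.0032 and -1.14, a mean of -0.69 ± 0.56 (SD, n = 4). These 6 genes were named for having the lowest p among genes of this list whose sign held on every array, 3 for each direction. Their p-values are therefore a description.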

How the data were processed

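The members and gene lists were chosen with earlier results of these data known. RNA was depleted of ribosomal RNA, parted on poly(A)-binding beads, amplified (WT-Ovation One-Direct) and given its dyes by ULS, per the labels' protocols. The deposited scanner files hold spot intensity and local background in 2 dyes, per the file headers. A deposited table by the authors gives log2 ratios for the 4 arrays. Set against loess ratios of A150 over A- without background correction, the 4 columns gave r from 0.996 to 0.999, with slopes from 0.837 to 1.22 and medians from -0.012 to 0.020. It was used as an alternative, and the reason for the slopes is unknown.

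Spot means were corrected with normexp (offset 50) on the median local background and normalized by loess within arrays, control spots at weight 0, in limma 3.58.1 (R 4.3.3). Each file's 22 unnamed rows were dropped. Signs of arrays 3 and 4 were turned. Ratios of all 7795 genes were tested against 0 with lmFit and eBayes and Benjamini-Hochberg adjustment, at a threshold of 0.05. The fit was tested on simulated data. Pool and array vary together, so the p-values cover both sources of spread, and the number of arrays limits precision. No synthetase spot was saturated.

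Of 47 member probes, 27 symbols were current in RefSeq (ARS-UCD2.0) and 20 were updated by synonym. The genome build behind the array was not stated in the labels or headers, and coordinates were left out. For genes with several kept probes the brightest was used. Values on every array were given for all tested genes; the naming rule required those with an unadjusted p under 0.05, the extremes of each class, the complete pairs and genes whose probes disagree, and the others were added after their values were seen. Bounds are the bright fraction's mean over the dim fraction's mean, with the dim value raised to the lowest signal above background, on single channels after loess and Aquantile, and are open to dye bias. The alternatives were background correction, spot medians, normalization, filter, probe choice, dye, pairing, the deposited ratios and each array left out. Detection was not corrected for probe length or affinity, so levels of different probes were not compared.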

Additional observations from a re-analysis of the deposited data

Results flagged for a closer look

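In 2 of the 20 tested genes 1 array stood far from the other 3, as the gap to the nearest array divided by the range over 4 arrays, which passed Dixon's critical value. Chance flags about 1 in 20 groups. For MARS1 the quotient was 0.918: array 1 stood at -4.02 and the others between 3.14 and 3.79. For TARS2 it was 0.862: array 4 stood at -3.05 and the others between 0.38 and 0.93.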

How the results depend on the processing

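In each of the 15 alternatives with a fit, 0 synthetase genes passed an adjusted limma p. The count at an unadjusted p toward A150 was 1 with no background correction, with spot medians, with no replicate block and with arrays left out where neither fraction was above background (a choice made after seeing the data), 4 with no filter, 0 where both fractions had to be above background on all arrays, and 0 to 2 with 1 array left out. Toward A- it was 2 with no filter, 0 with the both-fractions filter and 1 to 2 with 1 array left out. Of all genes, 138 were called with no normalization, 27 with no replicate block (the array holding the pair is in the ratio otherwise), and 1 with the both-fractions filter and with the deposited ratios. No normalization moved the median of all genes from 0.05 to -0.36. The both-fractions filter left only RARS1, LARS2 and AIMP1 of the members.

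The cytosolic median was 0.98 with that filter (by RARS1 alone) and 0.07 to 0.27 with 1 array left out. From 0.20 it moved to 0.036 with no normalization, 0.062 with spot medians and 0.38 with median centring. The mitochondrial median moved from -0.05 to -0.42 with no normalization and -0.37 with spot medians. The mitochondrial median turned positive with A150 in Cy3 alone (0.025), without IARS1 and IARS2 (0.10), and without array 1 (0.079) or 4 (0.046), in a range of -0.19 to 0.079 over arrays left out. Their difference was 0.46 with median centring and with no normalization, 0.43 with spot medians, 1.23 with the both-fractions filter, 0.012 without IARS1 and IARS2 and 0.19 to 0.33 with 1 array left out. The median of all members turned negative with spot medians (-0.12), no normalization (-0.28), A150 in Cy5 alone (-0.11), the deposited ratios (-0.0080) and without array 3 (-0.068), in a range of -0.068 to 0.15 over arrays left out. IARS1 minus IARS2 was 2.46 with no background correction and 2.40 with the deposited ratios.

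Genes that changed sign were near 0 or spread widely. With A150 in Cy5 alone, AARS1 was -0.56, AARSD1 -0.28, CARS2 -0.15, FARSA 0.39, LARS1 0.14, MARS1 -0.44 and TARS2 0.66. With A150 in Cy3 alone, AIMP1 was 0.50, NARS1 0.25 and RARS2 0.40. With no normalization, AARS1 was -0.11, AARSD1 -0.32, CARS2 -0.26 and RARS2 0.081. With median centring, AIMP1 was 0.094, NARS1 0.019 and RARS2 0.42. With spot medians, AARS1 was -0.22 and AARSD1 -0.0078. AARS1 was -0.00018 with the deposited ratios and NARS1 0.20 as the mean of its probes. With 1 array left out, AARS1 ran from -0.19 to 0.37, LARS1 from -0.32 to 0.040, NARS1 from -1.18 to 0.015, RARS2 from -0.74 to 0.72, TARS2 from -0.76 to 0.56 and WARS1 from -0.55 to 0.11. The cause was not tested. IARS1, IARS2, RARS1, WARS2, GARS1, SARS2, LARS2, HARS1 and AIMP2 kept their direction in every alternative run. The number of arrays, spots near background and the absence of a fit within each dye limit what could be seen.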
